A study of Mus musculus with 14 samples.

Results

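The cytosolic ribosomal protein genes of the mouse were followed through embryoid body differentiation in a control line and a Foxk1 knockout line. Members were the protein-coding genes whose symbol is Rpl or Rps followed by a number, together with Rplp0, Rplp1, Rplp2 and Rpsa. The Rps6k kinases, symbols ending in bp1 and symbols containing -ps were left out. This gave 85 of the 36047 genes in each count table, 52 of the large and 33 of the small subunit. Of these, 8 are paralogs of another member (Rpl3l, Rpl7l1, Rpl10l, Rpl22l1, Rpl36al, Rpl39l, Rps27l and Rps27rt). The members lie on 19 chromosomes of the mm10 build, 14 of them on chromosome 7 and 4 on chromosome X, and the median length of their mRNAs is 681 nt.

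Poly(A) RNA was sequenced in bulk from embryoid bodies, aggregates of differentiating embryonic stem cells. Stem cells of the iHA-Foxk1 line, the control, and of a Foxk1 KO line were grown with LIF on irradiated mouse embryonic fibroblasts. After a plating step to remove the fibroblasts, both lines were shaken in mesodermal medium with serum. The harvests are labelled days 3, 5 and 10. At day 10 a further group carries both Foxk1KO and IWR1 in its sample titles. IWR1 is a small molecule that blocks Wnt signalling by stabilising Axin; no label gives its dose or timing. Control titles at days 3 and 5 name iHAFoxk1 and include ND, left without explanation in the labels. Those at day 10 say only Control and do not name the line. Each of the 7 groups had 2 libraries, 14 in all. The labels do not say that the 2 came from separate cultures, so the p-values measure only the spread between these libraries, which may be technical. At days 3 and 5 each genotype is 1 line, so the knockout and other differences between the lines cannot be told apart. Nor can they at day 10, where the control line is not named.

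The libraries of days 3 and 5 held 10574194 to 11621032 estimated counts and those of day 10 held 34466708 to 52747273. Levels are given as CPM, the count relative to the scaled library size, and the tables of days 3 and 5 and of day 10 were scaled separately. Foxk1 stood at 86.3 and 76.4 CPM in the day 3 control libraries and 16.2 and 16.5 in the KO libraries, and at 134 and 133 against 38.2 and 33.6 at day 5. At day 10 it was 65.0 and 80.1 CPM in the control, 71.3 and 41.8 in the libraries labelled KO, and 26.4 and 52.9 in those labelled KO with IWR1. The control and KO values overlapped at day 10, so the transcript does not bear out those labels. Summed over 10 markers of primitive streak and mesoderm, the level at day 3 was 2613 to 2712 CPM in the control and 220 to 268 in the KO, with no marker at 0. Summed over 10 pluripotency markers it was 75.7 to 82.4 CPM in the day 5 control and 333 to 623 in the day 5 KO.

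Ribosomal proteins are built with ribosomal RNA into the large and small subunits of the ribosome, and dividing stem cells spend much of their transcription on making these parts. Most ribosomal protein mRNAs start with a run of pyrimidines, the 5' terminal oligopyrimidine (TOP) sequence, through which mTOR signalling sets their translation. Their short, abundant mRNAs have been copied back into the genome many times, and these intronless copies, the processed pseudogenes, can be nearly identical to the parent mRNA. A read from the parent can then be counted on the copy or shared between them.

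Because of that, processed pseudogenes were assigned to members by sequence. In all, 615 annotated copies matched 81 of the 85 members with at least 95% identity over at least 80% of the copy, with a median of 5 and at most 61 copies for a member. Of these copies 4 are annotated as protein-coding, and Rpl37rt, the most abundant copy of Rpl37, has 2 exons. All assigned copies are counted as processed pseudogenes in what follows. The pairs of stretches below come from 4 families in which the copies' share of the counts differed widely between the lines at day 3. Each stretch is 60 bases of the member's coding sequence with the matching stretch of its most abundant copy, and capitals mark the bases at which member and copy differ.
Rps13 coding bases 390 to 449: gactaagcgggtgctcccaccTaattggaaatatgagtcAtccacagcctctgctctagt
Rps13-ps1 (chr8:87048109-87048168, plus strand): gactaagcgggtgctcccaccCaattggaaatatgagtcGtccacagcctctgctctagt
Rpl34 coding bases 102 to 161: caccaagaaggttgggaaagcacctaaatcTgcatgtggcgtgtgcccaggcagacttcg
Rpl34-ps1 (chr6:71124711-71124770, plus strand): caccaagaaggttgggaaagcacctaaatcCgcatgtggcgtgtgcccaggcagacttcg
Rpl3 coding bases 27 to 86: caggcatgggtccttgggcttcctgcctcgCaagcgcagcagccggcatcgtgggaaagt
Rpl3-ps1 (chrX:13202598-13202657, plus strand): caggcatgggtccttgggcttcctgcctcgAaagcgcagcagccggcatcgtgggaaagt
Rps3a1 coding bases 627 to 686: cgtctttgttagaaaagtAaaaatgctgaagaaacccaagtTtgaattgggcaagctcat
Rps3a2 (chr14:88123123-88123182, minus strand): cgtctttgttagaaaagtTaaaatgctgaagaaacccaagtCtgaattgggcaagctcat

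Over the whole alignment Rps13-ps1 differs from Rps13 at 2 of 522 bases, Rpl34-ps1 from Rpl34 at 2 of 354, Rpl3-ps1 from Rpl3 at 2 of 1210 and Rps3a2 from Rps3a1 at 4 of 792. By contrast, Rps12-ps3 matches Rps12 at all 494 aligned bases and Gm15500 matches Rpl5 at all 1018. For copies of this second kind no read inside the alignment can tell member from copy.

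At day 3 the split of counts between member and copy differed between the lines in the families shown above. Rps13, a small subunit protein encoded at chr7:116331505-116334195, stood at 33.6 and 47.8 CPM in the day 3 control and at 624 and 659 CPM in the day 3 KO. Its copy Rps13-ps1 stood at 653 and 643 CPM in the control and at 11.0 and 7.69 in the KO. Member and copies together came to 689 ± 2.40 CPM (SD, n = 2) in the control and 651 ± 22.7 in the KO. The member's log2 fold change was 3.98 ± 0.18 (SE; adjusted p = 3.55e-05 by the quasi-likelihood test of edgeR), and that of the sum was -0.08 ± 0.04 (adjusted p = 0.145). So at day 3 the libraries of the 2 lines lay far apart for Rps13 alone, while the difference of the sum did not pass the test. At day 5 the sum was called lower in the KO, with -0.18 (adjusted p = 0.00543 by the same test).

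Rpl34, a large subunit protein encoded at chr3:130726831-130730398, went from 33.3 and 31.1 CPM in the day 3 control to 419 and 441 in the KO, while Rpl34-ps1 went from 318 and 294 to 2.83 and 2.11. The sum was higher in the KO, by 0.35 ± 0.05 on the log2 scale (adjusted p = 0.00121), far less than the 3.74 ± 0.07 of Rpl34 alone. Rpl3, whose product helps form the peptidyl transferase centre and which is encoded at chr15:80077791-80091868, went from 307 and 329 CPM to 2104 and 2119. Its copy Rpl3-ps1 went from 2185 and 2163 CPM to 15.3 and 9.38. Here the sum was lower in the KO, with a log2 fold change of -0.23 ± 0.04 (adjusted p = 0.00118), against 2.73 ± 0.05 for the member alone. The direction of the difference for Rpl3 thus depends on where the counts of Rpl3-ps1 are placed.

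In 28 families at least 25% of the CPM lay on the copies in some group. In 8 of them, defined after their values were seen, the copies held at least 25% in the day 3 control and under 5% in the day 3 KO: Rpl3, Rpl29, Rpl30, Rpl34, Rplp0, Rps2, Rps3a1 and Rps13. With copies summed, Rpl29, Rpl30, Rpl34, Rplp0 and Rps3a1 were still called higher in the KO at days 3 and 5. The sums of Rpl3 and Rps2 were called lower on both days, and that of Rps13 at day 5 only. The copies' share of the Rps13 family was 94.1% in the day 3 control and 1.50% in the KO, and at day 5 it was 95.1% and 13.2%. For Rpl29 the shares were 90.4% and 0.440% at day 3 and 92.1% and 2.54% at day 5. At day 10 the shares of Rps13 were 91.6% in the control, 87.0% in the libraries labelled KO and 89.5% in those with IWR1, with no gap of that size.

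The 28 families divided by whether the most abundant copy matches the member exactly. In the 15 families with an identical copy the median share on copies was 50.0% in the day 3 control and 45.5% in the KO, and 49.9% and 51.0% at day 5. In the 13 families whose copy carries mismatches the median was 73.7% against 0.581% at day 3 and 74.2% against 3.97% at day 5. At day 10 it was 44.5%, 40.4% and 41.3% in the control, the KO and the KO with IWR1. Some families of the second kind did not follow: the Rps7 copies held 87.8% in the day 3 control and 84.3% in the KO. How the authors' quantification assigned reads between near-identical transcripts was not tested, and a difference between the lines in the sequence of these loci was not tested either.

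**Figure D1:**
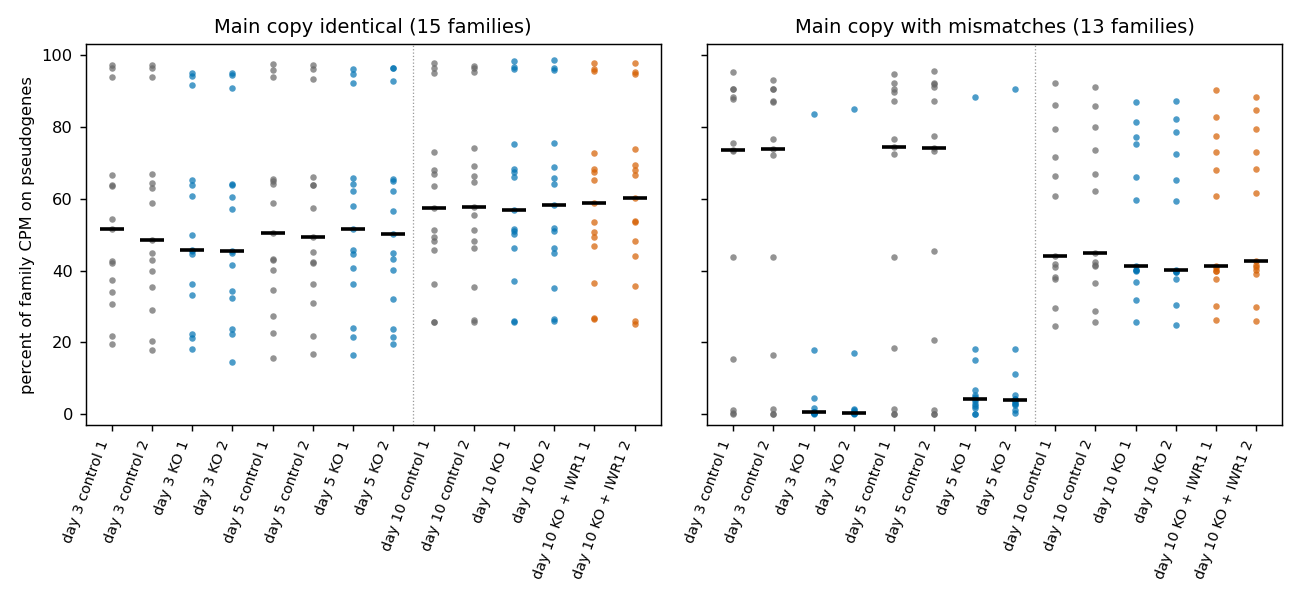
Percent of each family's CPM counted on processed pseudogenes (y axis) in each of the 14 libraries (x axis), for the 15 families whose most abundant copy is identical to the member and the 13 whose copy carries mismatches; points are families and black bars are medians. In the mismatch panel the medians of the day 3 and day 5 KO libraries lie near 0 and those of all other libraries lie far above, while the identical panel shows no such gap.

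The copies can also be described one by one, though a copy enters the test only where some group holds enough counts of it, so one that is low elsewhere had to differ; these counts support nothing. A gene was called where its adjusted p was under 0.05, and over all 14430 genes tested 16% were called higher and 16.9% lower at day 3. Of 17 tested copies identical to their member, 1 was called higher and 11 lower in the KO at day 3, with a median log2 fold change of -0.17. Of 49 tested copies with mismatches, 1 was called higher and 20 lower, with a median of -0.46. From day 3 to day 5 within the KO line, where 28.3% of all genes were called higher and 25.5% lower, 17 of the 49 were called higher and 3 lower, with a median of 0.61. Of the 17 identical copies none was called higher and 10 lower.

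Against that background, the knockout line had slightly lower levels of most ribosomal protein genes at day 3. Of 84 members tested, 42 were called lower, a share of 50.0% where 16.9% of all genes were, and 18 were called higher, where 16% of all genes were. DESeq2 called 20 lower and 13 higher, and the shares of all genes it called are not given here. The median log2 fold change of the members was -0.13, against -0.01 for all genes tested and 0.02 for the 2335 genes above a mean of 100 CPM. It was -0.12 for the large subunit and -0.17 for the small subunit. Among the 77 members that are no paralogs, the 40 called lower had a median log2 fold change of -0.21, a fall of 13.3%, and lay between -0.45 and -0.10. In 59 members both KO libraries lay below both control libraries, a pattern that 37.8% of all genes tested showed. In bulk libraries, fewer cells of a type and less RNA per cell cannot be told apart, and marker sums moved with the lines. At day 3, beside the mesoderm sum, pluripotency markers came to 2387 to 2428 CPM in the control and 2015 to 2095 in the KO, 8 fibroblast markers to 2359 to 2372 and 448 to 455 with Lum at 0, 7 endoderm markers to 80.03 to 83.03 and 8.75 to 12.1 with Alb at 0 in both lines, Afp in the control and Cer1 in the KO, and 6 neural markers to 24.7 to 27.6 and 80.9 to 84.5. Among the 8 fibroblast markers 1 was called higher and 1 lower, with a median log2 fold change of 0.55. Among the 10 pluripotency markers 1 was called higher and 2 lower, with a median of -0.12. The lower fibroblast and pluripotency sums thus do not describe those lists as a whole. The part of cell types in these differences was not tested.

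With the counts of assigned pseudogenes added to each member, 51 members were called lower and 10 higher at day 3, beside 16.9% and 16% of all genes in the same fit. All 42 members called lower alone were among the 51. Of the 18 called higher alone, 10 were still called higher and 5 were called lower (Rpl3, Rpl5, Rpl12, Rps2 and Rps12). In the 48 members, paralogs aside, whose copies stayed under 5% of the family in every group of days 3 and 5, a set defined after the values were seen, 32 were called lower and 3 higher, with a median of -0.17. Without 1 library the day 3 count of lower calls for members alone dropped: to 21 without control replicate 1, to 29 without control replicate 2, to 17 without KO replicate 1 and to 27 without KO replicate 2. The direction of the median held in each.

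**Figure D2:**
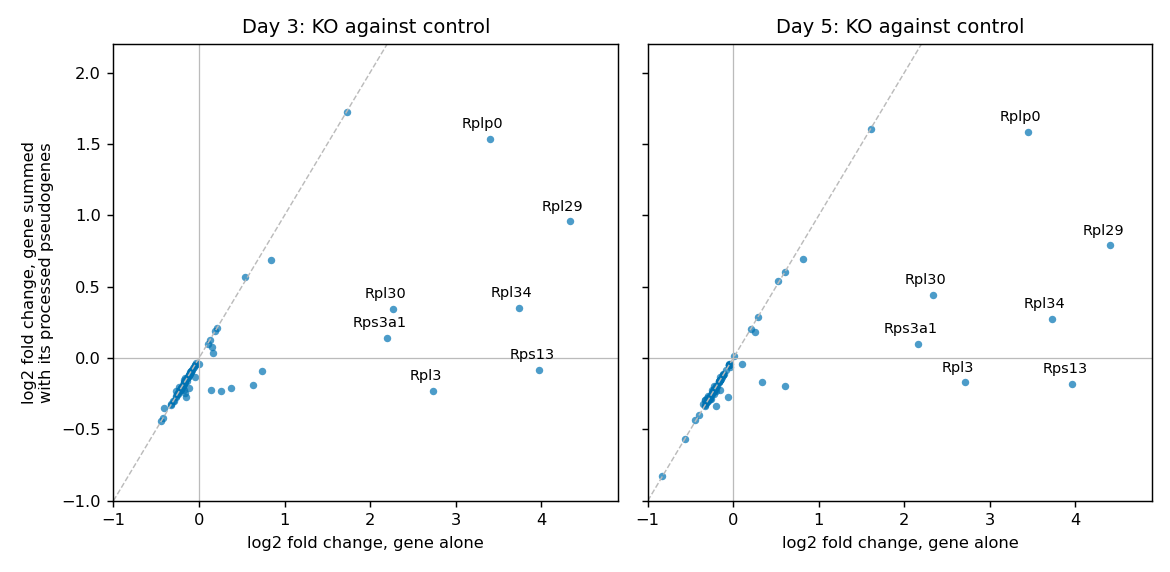
Log2 fold change of KO against control for each member alone (x axis) and summed with its processed pseudogenes (y axis), at day 3 and day 5; each point is 1 member, the dashed line marks equal values, and the low-count paralogs Rpl10l, Rpl39l and Rps27rt are left out. Most members sit on the line a little below 0, and the named families, whose copies changed share, lie far to the right of it.

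Members that were higher in the KO both alone and with copies included the base of the stalk. Rplp0 encodes the protein that anchors the P stalk, where elongation factors bind, at chr5:115559467-115563727. It stood at 258 and 263 CPM in the day 3 control, 2717 and 2785 in the day 3 KO, 221 and 213 in the day 5 control and 2446 and 2281 in the day 5 KO. Its copy Gm8730, with 12 mismatches over 954 aligned bases, went from 405 and 408 CPM to 2.39 and 2.37 at day 3. The family sum was 954 ± 17.4 CPM (SD, n = 2) in the day 3 control and 2759 ± 47.6 in the KO, which is 1.53 ± 0.04 on the log2 scale (adjusted p = 1.57e-08), and 1.59 at day 5. The groups did not overlap on either day, and the difference of the sum was smaller than the 3.40 ± 0.05 of Rplp0 alone.

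The other 2 stalk proteins, Rplp1 and Rplp2, which bind to Rplp0 as dimers, showed no such rise. Rplp1 stood at 1486 and 1489 CPM in the day 3 control and 1575 and 1616 in the KO (log2 fold change 0.10, adjusted p = 0.12), then at 1230 and 1187 against 1139 and 1042 at day 5 (-0.15, adjusted p = 0.0262). Rplp2 was lower in the KO on both days, at 850 and 828 against 742 and 785 CPM at day 3 (-0.14, adjusted p = 0.0296). The test of Rplp2 passed only narrowly at day 3, and the group values lay close together. Rpsa, the small subunit protein also known as a laminin receptor, fell from 2919 and 2903 CPM in the control to 2505 and 2490 in the KO at day 3 (-0.22, adjusted p = 0.000387). Its libraries did not overlap at day 5 either, at 2619 and 2653 against 2360 and 2354.

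Among large subunit members, Rpl29 went from 37.5 and 37.2 CPM in the day 3 control to 743 and 766 in the KO, a log2 fold change of 4.33 ± 0.05 (adjusted p = 7.32e-11). Its family sum went from 390 to 757 CPM, with 0.96 ± 0.04 on the log2 scale (adjusted p = 2.79e-07), so a rise remained after its copies were counted in. Rpl15 rose from 508 and 492 CPM to 868 and 920, and its sum by 0.69 on both days. Within that family the identical copy Rpl15-ps3 rose too, from 16.6 and 7.66 CPM to 236 and 250, and the mismatched copy Gm10020 fell from 101 and 92.5 to 1.15 and 1.10. Rpl11, which with Rpl5 and 5S ribosomal RNA forms the particle that restrains Mdm2, rose from 556 and 547 CPM to 785 and 819 at day 3, and its sum by 0.57.

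Rpl5 itself showed how far the answer rests on copies. Alone it stood at only 45.4 and 48.3 CPM in the day 3 control and 76.7 and 79.2 in the KO, a rise of 0.73 on the log2 scale (adjusted p = 0.0001). Its identical copy Gm15500 stood at 1590 and 1582 CPM in the control and 1457 and 1449 in the KO. The family sum was lower in the KO, with -0.09 (adjusted p = 0.0381). Rps12 gave a like result: alone it rose by 0.38 (adjusted p = 0.0249), its identical copy Rps12-ps3 held 1704 and 1714 CPM against 1415 and 1487, and its sum fell by 0.21.

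Apart from the paralogs Rpl22l1 and Rpl39l, described with the other paralogs, the largest falls at day 3 were those of Rps20, Rpl28, Rpl36 and Rpl17. Rps20, at the head of the small subunit, fell from 863 and 828 CPM to 601 and 639 at day 3 and from 716 and 714 to 519 and 532 at day 5. On the log2 scale these falls were -0.45 ± 0.04 (adjusted p = 8.23e-05) and -0.44 (adjusted p = 6.35e-05), and the libraries did not overlap on either day. Rpl28 fell from 502 and 484 CPM to 363 and 379 at day 3 (-0.41, adjusted p = 0.000149). Rpl36 fell from 469 and 431 CPM to 347 and 371 at day 3 and from 425 and 408 to 286 and 277 at day 5 (-0.56, adjusted p = 6.36e-05). Rpl17, which lines the exit tunnel, fell from 888 and 916 CPM to 687 and 677 at day 5 (-0.40, adjusted p = 8.4e-05). With copies added the values at day 3 and day 5 were -0.44 and -0.43 for Rps20, -0.35 and -0.30 for Rpl28, -0.33 and -0.56 for Rpl36 and -0.32 and -0.40 for Rpl17.

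At day 5 the picture of the KO against the control was alike in size. Of 84 members, 49 were called lower (58.3%) where 21.7% of all genes were, and 17 were called higher (20.2%) where 21.9% of all genes were. The share called higher lay near the background and that called lower above it. In 61 members both KO libraries lay below both control libraries, a pattern of 35.2% of all genes. With library totals in place of the scaled library sizes the split was 28 lower and 18 higher, with no share of all genes beside it. That scaling moved the median of all genes from 0.01 to 0.10 and the median of the members from -0.16 to -0.07, so the members stayed 0.17 below all genes by either scaling. With copies summed, 56 were called lower and 13 higher, beside 21.6% and 22% of all genes. The comparisons of days 3 and 5 share no library, but they come from the same fit and the same lines. Called lower in both were 37 members, 88.1% of those at day 3 and 75.5% of those at day 5. Likewise 15 were called higher in both, 83.3% and 88.2%. The share of all genes called on both days is not given here, so these overlaps have no background to be read against.

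The paralogs of ribosomal protein genes, some of which replace their partner in particular tissues, went separate ways. Rpl22l1, which can replace Rpl22 in the ribosome and acts in RNA processing, stood at 173 and 163 CPM in the day 3 control and 118 and 133 in the KO, then at 136 and 139 against 77.6 and 77.0 at day 5. Its log2 fold change was -0.42 ± 0.07 at day 3 (adjusted p = 0.00123) and -0.83 ± 0.07 at day 5 (adjusted p = 1.86e-05). Rpl22 stood at 428 and 405 against 380 and 380 CPM at day 3 and 361 and 369 against 332 and 373 at day 5, and passed the test on neither day. The groups of Rpl22 overlapped at day 5, while those of Rpl22l1 did not on either day.

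Rps27l, a p53 target in other cells, was higher in the KO at day 5, at 180 and 153 CPM against 108 and 112, with 0.60 ± 0.08 on the log2 scale (adjusted p = 0.000326). The day 3 values were 166 and 175 CPM against 152 and 143, which missed the threshold (0.21 ± 0.08, adjusted p = 0.0653). Its partner Rps27 went the other way, with -0.17 at day 3 and -0.20 at day 5. Rpl7l1, which takes part in making the large subunit, rose by 0.19 at day 3 (adjusted p = 0.0198) and by 0.28 at day 5 (adjusted p = 0.00208), while Rpl7 had -0.12 and 0.01. Rpl36al passed the test on neither day, and Rpl36a fell by 0.18 and by 0.23.

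The paralogs known from testis, Rpl10l and Rpl39l, were close to the limit of counting. Rpl39l stood at 2.64 and 3.52 CPM in the day 3 control and 0.796 and 0.845 in the KO. That is 70 against 19 counts over the groups, a control level 3.75 times that of the KO (95% interval 2.23 to 6.59, exact, counting error only), and -1.89 ± 0.48 on the log2 scale (adjusted p = 0.0141). Rpl10l stood at 2.99 and 2.29 CPM in the day 3 control and 2.74 and 2.62 in the KO, with 0.02 (adjusted p = 0.979). At day 5 Rpl10l had 1 count in the control and 17 in the KO, a ratio of 16.2 with an interval of 2.54 to 677. The muscle paralog Rpl3l was at or under 0.176 CPM in every library of days 3 and 5 and was not tested there.

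From day 3 to day 5 most ribosomal protein transcripts fell in both lines. In the control 59 of 84 members were called lower (70.2%) where 30.2% of all genes were, and none was called higher where 30.6% of all genes were. DESeq2 also called none higher, and none had an unadjusted p under 0.05 in that direction. In the KO 67 were called lower (79.8%) where 25.5% of all genes were, and none was called higher where 28.3% were, again with none by DESeq2 and none at an unadjusted p under 0.05. The median log2 fold change was -0.22 in the control and -0.23 in the KO, against -0.06 and -0.07 for genes above 100 CPM. Of the members called lower, 53 were called in both lines, 89.8% of the 59 and 79.1% of the 67. The share of all genes called lower in both lines is not given here. With copies summed the counts were 63 and 67, beside 30.5% and 25.7% of all genes. Cell type markers moved over the same days: the pluripotency sum went from 2387 to 2428 CPM at day 3 to 75.7 to 82.4 at day 5 in the control, and from 2015 to 2095 to 333 to 623 in the KO. The mesoderm sum went from 2613 to 2712 to 446 to 474 CPM in the control and from 220 to 268 to 456 to 489 in the KO. The fibroblast sum went from 2359 to 2372 to 4037 to 4304 CPM in the control and from 448 to 455 to 2339 to 3752 in the KO. Their part in the fall was not tested.

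In the control, 76 members had both day 5 libraries below both day 3 libraries, and 79 did in the KO, where 42.1% and 37.4% of all genes did. Among the 77 members without paralogs the 53 called lower in the control fell by a median of 15.7% and the 62 called lower in the KO by 16.3%. Rpl10l fell from 60 counts over the control group to 1, a day 3 level 56.9 times that of day 5 with an interval of 9.83 to 2285. In the KO it fell from 62 counts to 17, a ratio of 3.57 with an interval of 2.06 to 6.51. Rpl39l fell from 70 counts to 1 in the control. Of the well counted members Rps12 fell most in both lines, by 0.57 in the control (adjusted p = 0.00189) and by 0.85 in the KO (adjusted p = 0.00021), but nearly all counts of its family lay on its copies.

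**Figure D3:**
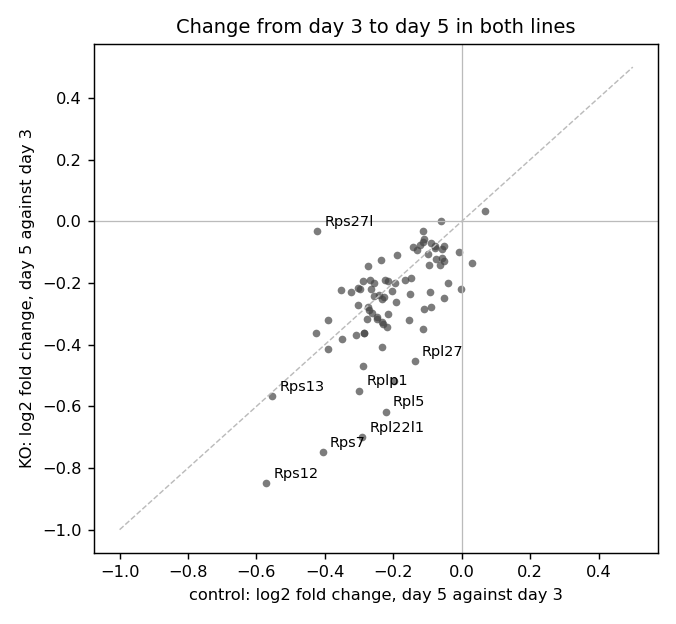
Log2 fold change from day 3 to day 5 in the control line (x axis) and in the KO line (y axis), 1 point per member, with Rpl10l, Rpl39l and Rps27rt left out. Nearly all points lie below 0 on both axes, around medians of -0.22 and -0.23.

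The change between the lines differed little from day 3 to day 5. The difference of the 2 knockout effects passed the test for 8 members, 2 higher and 6 lower, where 13.4% of all genes were called higher and 10.8% lower, so the members' shares (2.38% and 7.14%) lay below the background. The split was 6 higher and 3 lower with library totals. The counts moved with single libraries. The 6 lower calls became 0 to 3 without any 1 library of day 3 or of the day 5 control, and 18 and 16 without KO replicate 1 and 2 of day 5. The 2 higher calls became 0 without any 1 library of day 3 or of the day 5 control, and 4 and 1 without KO replicate 1 and 2 of day 5. Among the 8 were Rpl22l1, whose deficit in the KO grew by 0.41 ± 0.09 (adjusted p = 0.0121), and Rps27l, whose excess grew by 0.39 ± 0.11 (adjusted p = 0.0306).

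Set against the whole library, the members took 6.45% and 6.28% of all counts in the day 3 control and 6.66% and 6.83% in the KO, and 5.22% and 5.29% against 5.62% and 5.93% at day 5. The means were 6.36% ± 0.118 and 6.75% ± 0.121 (SD, n = 2) at day 3, and the groups did not overlap. With the assigned pseudogenes added the order at day 3 turned, to 8.20% and 8.03% in the control and 7.59% and 7.79% in the KO. At day 5 the added shares overlapped, with 6.61% and 6.72% in the control and 6.43% and 6.79% in the KO. The copies' part of the summed counts was 21.4% and 21.8% in the day 3 control and 12.3% and 12.2% in the KO. With 2 libraries against 2 the exact two-sided permutation test cannot go below 0.333, so these shares are a description.

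**Figure D4:**
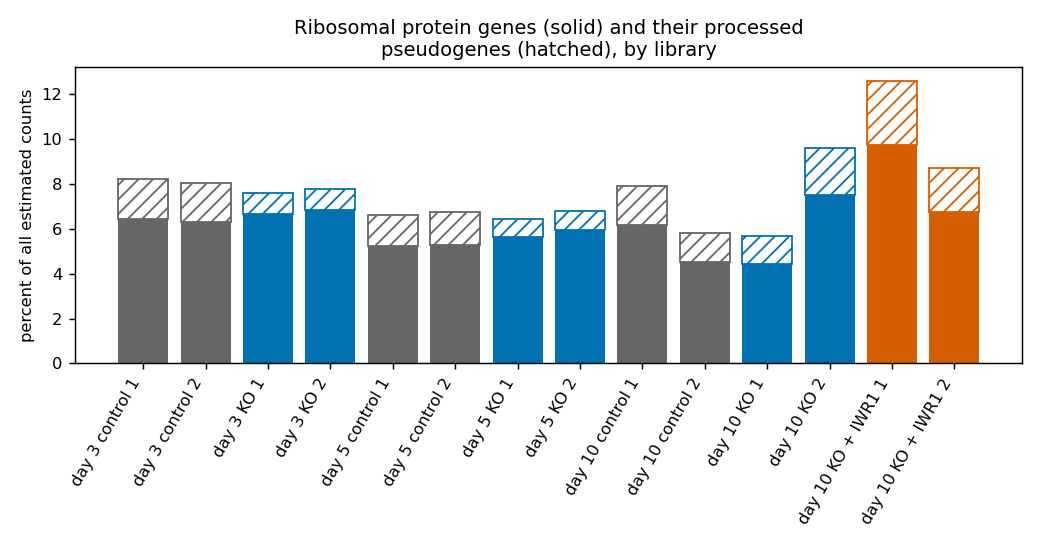
Percent of all estimated counts on members (solid) and on their assigned processed pseudogenes (hatched) in each of the 14 libraries, grey for control, blue for KO and orange for KO with IWR1; bars start at 0. At day 3 the solid bars are taller in the KO and the full bars taller in the control, and at day 10 replicates of 1 group differ by more than the day 3 groups do.

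At day 10 the libraries of 1 group lay far apart. The members took 6.17% and 4.52% of counts in the control, 4.41% and 7.49% in the libraries labelled KO and 9.71% and 6.73% in those labelled KO with IWR1. No member passed the test between the libraries labelled KO and the control, where 1.92% of all genes were called higher and 3.35% lower. DESeq2 called none. At an unadjusted p under 0.05, 2 members were higher and none lower, beside 9.24% and 10.7% of all genes. The median log2 fold change was 0.32, against 0.14 for genes above 100 CPM, but it was -0.16 without replicate 2 labelled KO, 0.62 without replicate 1 labelled KO, 0.55 without control replicate 1 and 0.13 without control replicate 2. Library totals moved the median of all genes by -0.16 in this comparison and by -0.12 between those labelled KO with IWR1 and the control, and the members' distance from all genes stayed at 0.28 against 0.29 with scaled sizes in the first.

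The IWR1 group was compared with the libraries labelled KO and with the control, and these comparisons share libraries. Against those labelled KO none was called higher, where 5.77% of all genes were, and 1 lower (Rpl10l), where 8.08% were. The median was 0.43, and it was 0.03 without IWR1 replicate 1, 0.09 without replicate 1 labelled KO, 0.90 without replicate 2 labelled KO and 0.74 without IWR1 replicate 2. Against the control the median was 0.74, beside 0.24 for genes above 100 CPM, and 64 of 85 members had both IWR1 libraries above both control libraries, where 33.6% of all genes did. So did 53 of 78 mitochondrial ribosomal protein genes, 38 of 43 ribosome biogenesis factors and 20 of 23 elongation factors and other TOP mRNA genes. Their medians were 0.57, 0.63 and 0.72, and 0, 0 and 2 genes lay lower without overlap. The pattern is thus not particular to the members. No member passed the test as higher, where 2.99% of all genes did, and 1 was called lower (Rpl10l), where 6.13% were. At an unadjusted p under 0.05, 12 members were higher against the control, beside 14.3% of all genes, and 2 were higher against those labelled KO, beside 15.8%. DESeq2 called 6 and 2 higher, with no share of all genes beside them. Without IWR1 replicate 1 the median against the control was 0.35.

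Members moved together from library to library at day 10. Relative to each gene's mean over the 6 libraries, the median of the 77 members without paralogs was -0.10 and -0.58 on the log2 scale in the control, -0.48 and 0.33 in those labelled KO and 0.77 and 0.04 in the libraries labelled KO with IWR1. All 77 were above their mean in IWR1 replicate 1, 75 in replicate 2 labelled KO and none in control replicate 2 or the replicate 1 labelled KO. Mitochondrial ribosomal protein genes kept the same order of libraries within each group. They took 0.391% and 0.314% of counts in the control, 0.272% and 0.404% in those labelled KO and 0.554% and 0.412% with IWR1. The summed level of 8 fibroblast markers was 9414 and 10839 CPM in the control, 30927 and 23275 in those labelled KO and 1524 and 3883 in the libraries labelled KO with IWR1, with none at 0. Within each group the library with the higher fibroblast sum was the one with the lower ribosomal protein median. Between groups this order did not hold, as replicate 2 labelled KO had a higher sum and a higher median than control replicate 2. The cardiomyocyte markers, 8 in number, summed to 2976 and 2689 CPM in the control, 58.6 and 130 in those labelled KO and 231 and 187 with IWR1. Their sum was higher in the library of each group with the higher ribosomal protein median. The blood marker sum did not keep 1 order, at 1149 and 887 CPM in the control and 467 and 840 with IWR1. The part of cell composition in the day 10 levels was not tested.

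**Figure D5:**
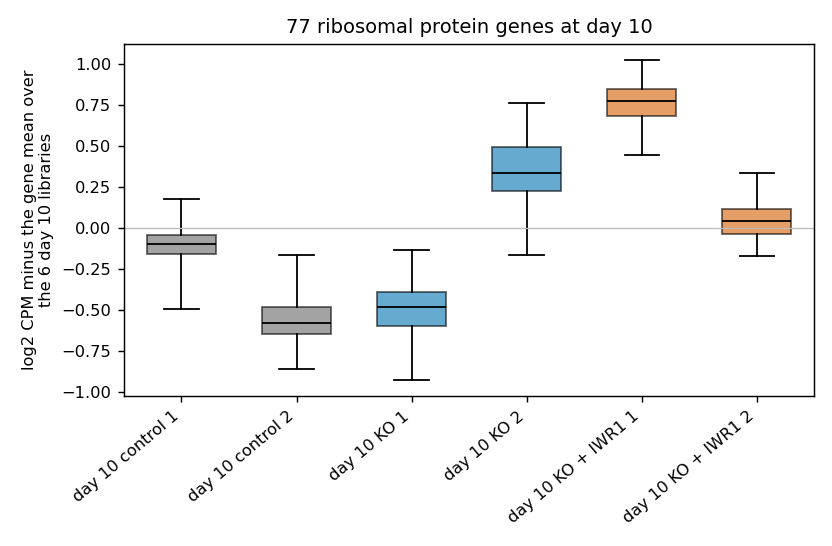
Log2 CPM minus the gene's mean over the 6 day 10 libraries (y axis) for the 77 members without paralogs; boxes span the quartiles and whiskers reach the extremes. Control replicate 2 and replicate 1 labelled KO lie wholly below 0, IWR1 replicate 1 lies wholly above, and the 2 boxes of each group are set apart.

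Single members at day 10 show the same spread. Rplp0 stood at 814 and 597 CPM in the control, 689 and 1193 in those labelled KO and 1991 and 1117 in the libraries labelled KO with IWR1, and its groups overlapped between control and KO. Rpsa stood at 2008 and 1556, at 1729 and 2774 and at 4089 and 2572 CPM in the same order. The 1 called member, Rpl10l, stood at 1.05 and 2.12 CPM in the control, 1.63 and 1.86 in those labelled KO and 0.186 and 0.248 in the libraries labelled KO with IWR1. Over the groups it had 135 counts in those labelled KO and 18 with IWR1, a level 8.03 times that with IWR1 (95% interval 4.89 to 14, counting error only; adjusted p = 0.0189). Against the control the log2 fold change was -2.86 ± 0.52 (adjusted p = 0.0241), and this call was lost without control replicate 2 and without IWR1 replicate 1. Against those labelled KO it was lost without IWR1 replicate 1. Rpl3l was detected at day 10 at 0.257 and 0.159 CPM in the control, 0.582 and 0.547 in those labelled KO and 0.0828 and 0.165 with IWR1, and no comparison of it passed the test.

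Other genes of the ribosome pathway were taken from lists. In their counts, rose and fell mean called higher and called lower, to be read against the shares of all genes called. Those were 16% higher and 16.9% lower at day 3, 21.9% and 21.7% at day 5, and over time 30.6% and 30.2% in the control and 28.3% and 25.5% in the KO. Of 43 ribosome biogenesis factors, 12 were called higher and 2 lower in the KO at day 3, with a median of 0.11. At day 5, 28 were higher and none lower, with a median of 0.26, at a time when 49 ribosomal protein genes were lower. Heatr1, a processing factor of the small subunit, rose by 0.73 at day 5, Ddx21, a nucleolar helicase, by 0.65, and Brix1, which acts in large subunit assembly, by 0.54. From day 3 to day 5, 39 of the 43 fell in the control and 37 in the KO, with medians of -0.55 and -0.41. Dkc1, the pseudouridine synthase of box H/ACA particles, fell by 1.04 in the control, and Ncl, encoding nucleolin, fell by 0.68 in the KO. None of the 43 was called higher over time in either line. In the KO 1 had both day 5 libraries above both day 3 libraries.

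The 18 genes of RNA polymerase I and its factors, which make the ribosomal RNA precursor, gave 2 higher and 2 lower calls at day 3 and 6 higher and none lower at day 5. From day 3 to day 5, 14 fell in the control and 12 in the KO, among them Polr1b, the second largest subunit, by 0.96 in the control. Of 23 elongation factors and other TOP mRNA genes, 6 were higher and 7 lower at day 3 (16% and 16.9% of all genes) and 6 and 9 at day 5 (21.9% and 21.7%), with medians of -0.05 on both days. Eef2, which moves the ribosome along the mRNA, fell by 0.26 at day 3, and Eif3e, a subunit of initiation factor eIF3, rose by 0.62. In this list 17 fell over time in each line, with medians of -0.25 and -0.22, close to those of the ribosomal proteins. Fau and Rack1, a ribosomal protein made as a fusion and a ribosome-bound scaffold, fell by 0.23 and by 0.20 at day 3.

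The 78 mitochondrial ribosomal protein genes, which serve a separate ribosome, gave 9 higher and 9 lower calls at day 3, where 16% and 16.9% of all genes were called, with a median of -0.01. At day 5, 14 were higher and 5 lower, with a median of 0.03. Over time 33 fell and 4 rose in the control, where 30.2% of all genes fell, and 29 fell and 2 rose in the KO, where 25.5% fell, with medians of -0.20 and -0.16. Of 9 dedicated chaperones of ribosomal proteins, none was higher and 1 lower at day 3, and 3 were higher and none lower at day 5. The list of 23 Myc family and mTOR pathway genes, which also holds Foxk1 and Foxk2, was mixed, with 4 higher and 5 lower at day 3. Foxk1, the knocked-out gene, is among the 5 lower, at -2.32, a call that the design fixed. Eif4ebp1, a translational repressor that mTOR phosphorylates, rose by 0.47 at day 3 and fell by 0.55 at day 5.

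Levels differed widely between members. Per kilobase of mRNA and over the 8 libraries of days 3 and 5, Rpl41 led with 2753 CPM per kb, followed by Rplp1 with 2696, Rps2 with 1968, Rps18 with 1902 and Rpl8 with 1870. The lowest were Rpl3l at 0.0476, Rpl10l at 1.50, Rpl39l at 1.88, Rps27rt at 4.56 and Rpl5 at 26.4 CPM per kb. The order depends on the copies: counted with them, Rps12 came first with 2779 CPM per kb, where alone it had 125, Rps2 stood at 2609 and Rpl5 at 734. Measured on the longest annotated mRNA, Rplp1 came first with 2696 and Rpl41 stood at 2067. At day 10, a table scaled on its own, Rpl41 led again with 5839 CPM per kb, followed by Rps14 with 3224, Rps18 with 3096, Rpl9 with 2725 and Rps15 with 2118.

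Promoter sequences from RefSeq (GRCm38.p6, 250 bases before to 50 after each start) matched 65 members by symbol, with 77 promoters. Within 20 bases on each side of the start and on the gene's strand, 45.5% of them held the word CTTTC, the word CTTTT or the word CTTCC, against 17.2% of all 32851 promoters in the table. The opposite strand of the same window gave 20.8% and 17.3%. CTTTC alone was in 26.0% and 5.49% and CTTCC alone in 23.4% and 8.81%, and the searched words can overlap, as in CTTCCTTTC. The following 30-base windows, 15 bases before and 15 after the annotated start, show members with different courses in the KO, with the searched words in capitals: Rpl28 fell, Rpl15 rose, Rplp2 fell slightly and the sum of Rpl34 rose.
Rpl28 (chr7:4792950-4792979, plus strand): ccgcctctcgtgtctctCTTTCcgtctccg
Rpl15 (chr14:18270972-18271001, minus strand): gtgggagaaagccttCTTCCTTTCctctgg
Rplp2 (chr7:141447636-141447665, plus strand): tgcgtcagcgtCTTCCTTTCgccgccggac
Rpl34 (chr3:130730384-130730413, minus strand): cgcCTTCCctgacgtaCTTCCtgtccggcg

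Over the whole 300 bases and both strands, CCGGAAG, a core bound by Ets factors, was in 35.1% of member promoters and 8.86% of all. GTAAACA, a core bound by forkhead factors, was in 1.30% of member promoters, that is in 1 of 77, and in 3.65% of all. AAGATGGC, a core bound by YY1, was in 10.4% and 2.75%. These are matches of letters in a window and describe the sequence alone.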

How the data were processed

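The deposited tables of days 3 and 5 and of day 10 hold the authors' estimated counts per gene, stored as whole numbers and not scaled. Kallisto 0.46.2 and mm10 are named in the submitters' processing notes (not given in the sources used here: the annotation release and how transcripts were summed to genes). Poly(A) RNA was made into paired-end libraries with an unstranded or a stranded kit, per the labels' protocols. All 36047 identifiers matched GENCODE vM21.

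Each table was fitted on its own over all its genes with edgeR 4.0.16 in R 4.3.3 (filterByExpr, TMM library sizes, quasi-likelihood test, Benjamini-Hochberg adjustment, threshold 0.05, two-sided), on 14430 and 17022 genes. CPM uses the TMM library sizes. SE is the absolute log2 fold change divided by the square root of F. Intervals and low counts cover counting error only. Processed pseudogenes were matched with blastn 2.17.0. Alternatives were DESeq2 1.42.0, library totals, TMM without the members, no filter, a replicate block, members summed with pseudogenes, and leaving out each library. Shares of all genes called at the threshold are given for the main fit and the fit with pseudogenes summed. For the other alternatives they are not given, so those counts of calls have no background beside them. The fit was tested on simulated counts.

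The text names, per comparison, up to 4 members with the largest rise and up to 4 with the largest fall among called members without overlap, the paralog pairs, the stalk proteins and Rpsa, the 5 highest and 5 lowest levels per kb, families with at least 25% of CPM on copies, and up to 3 genes of each list by p. Members and lists were chosen with earlier results of these data known. No 2 replicates agreed within sampling noise. Some results for single genes are not reported here.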

Additional observations from a re-analysis of the deposited data

Results flagged for a closer look

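For 8 members the knockout effect at day 5 differed from that at day 3 by a test of the difference itself (edgeR, quasi-likelihood, adjusted by Benjamini and Hochberg). The difference, day 5 minus day 3 on the log2 scale, was positive for Rpl10l at 3.63 ± 1.08 (SE; adjusted p = 0.0373) and for Rps27l at 0.39 (adjusted p = 0.0306). For Rpl10l it rests on few counts, with 1 over the day 5 control libraries. It was negative for Rpl22l1 at -0.41 (adjusted p = 0.0121), Rpl5 at -0.40 (adjusted p = 0.0252), Rpl27 at -0.32 (adjusted p = 0.0159), Rplp1 at -0.25 (adjusted p = 0.0211), Rpl31 at -0.22 (adjusted p = 0.0278) and Rpl21 at -0.20 (adjusted p = 0.0375). Rpl31 and Rpl21 were named because of this test. Rplp1 lay above the control at day 3, at 1575 and 1616 against 1486 and 1489 CPM, and below it at day 5, at 1139 and 1042 against 1230 and 1187. Rpl27 did likewise, with 230 and 235 against 206 and 208 CPM at day 3 and 175 and 164 against 182 and 194 at day 5. Rpl31 stood at 447 and 447 against 448 and 448 CPM at day 3 and at 374 and 394 against 442 and 451 at day 5. DESeq2 called none higher and 1 lower (Rpl22l1) for this difference, and with single libraries left out 0 to 4 members were called higher and 0 to 18 lower. With pseudogenes summed, the difference was -0.074 for Rpl5 (adjusted p = 0.239) and -0.17 for Rpl27 (adjusted p = 0.0608).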

How the results depend on the processing

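Directions of the medians held under every alternative for days 3 and 5, library left out included, except that the median of the difference of effects was 0.06 with library totals; its direction carries no call. Day 3 calls of 18 higher and 42 lower became 10 higher with pseudogenes summed and 20 lower by DESeq2. Day 5 lower calls went from 49 to 28 with library totals, and the median from -0.16 to -0.070 with library totals and -0.19 summed. KO with IWR1 against KO gave 2 higher and 2 lower calls by DESeq2 and likewise 2 and 2 without a filter, and against control 6 higher by DESeq2 and 5 without a filter. For the difference of effects, higher calls were 0 by DESeq2, 6 with library totals and 1 with the replicate block, and lower calls 1 by DESeq2, 3 with library totals, 11 without a filter and 3 summed. With pseudogenes added, the difference in share of counts went from 0.384 to -0.427 percentage points at day 3, from 0.520 to -0.0511 at day 5 and from -1.11 to -1.45 over time in the control.

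Summing with pseudogenes turned the log2 fold change at day 3 of Rpl12 to -0.23, Rpl3 to -0.23, Rpl5 to -0.094, Rps12 to -0.21, Rps13 to -0.082, Rps2 to -0.19 and Rps7 to -0.22, and at day 5 of Rpl3 to -0.17, Rpl5 to -0.17, Rps13 to -0.18 and Rps2 to -0.20. The cause of the other changes was not tested.

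Leaving out 1 library leaves a lone sample that is assumed to vary like the other groups. It gave 12 to 13 higher and 17 to 29 lower calls at day 3 (median -0.16 to -0.11), 16 to 17 and 38 to 52 at day 5 (-0.19 to -0.16), 0 and 47 to 53 over time in the control (-0.24 to -0.20) and 0 and 52 to 71 in the KO (-0.25 to -0.22). For KO against control at day 10 it gave 0 calls and medians of -0.16 to 0.62, for KO with IWR1 against KO 0 to 2 higher, 0 to 1 lower and 0.03 to 0.90, and against control 0 to 1, 0 to 1 and 0.35 to 1.07. The difference of effects had 0 to 4 higher, 0 to 18 lower and -0.05 to -0.01. Differences in share ranged from 0.299 to 0.470 points at day 3, 0.365 to 0.675 at day 5, -1.19 to -1.02 in the control and -1.13 to -0.816 in the KO over time, -0.929 to 2.15 for KO against control at day 10, 0.726 to 3.81 for IWR1 against KO and 1.38 to 4.37 against control.

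Replicate numbers are shared between groups, but the labels do not say that a number marks a batch. Deviations of same-numbered libraries correlated between -0.02 and 0.05 at days 3 and 5, and at -0.30 (control and KO), 0.24 (control and IWR1) and -0.32 (KO and IWR1) at day 10. With the replicate block the calls were 17 higher and 41 lower at day 3, 17 and 47 at day 5, 55 lower over time in the control and 65 in the KO, and 1 higher and 5 lower for the difference. Of 205 values of named genes, the block left 199 on their side of the threshold.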
